A study of Mus musculus with 42 samples.

Results

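Embryoid bodies of 3 mouse pluripotent lines were compared between day 7 and day 2 of culture, the step in which such aggregates form germ layers. The comparison used 12 of the 42 arrays of the series, chosen by their titles: 6 arrays of day 7 and 6 arrays of day 2, with 2 arrays per line at each day. The lines were embryonic stem (ES) cells and the lots GPSC-A and GPSC-B of pluripotent stem cells derived from germline cells (GPSCs). Day 7 and day 2 bodies alike had grown in a cocktail for hepatic differentiation, and neither its make-up nor the strain, genotype and clonality of the lines are stated in the sources used here. The other 30 arrays held untreated cells (day 0), later days of culture and primary hepatocytes, and serve below only as levels for orientation.

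An embryoid body is a floating ball of pluripotent cells that leaves the naive state, passes through an epiblast-like state and then segregates mesoderm, endoderm and ectoderm. In the embryo this runs through the primitive streak, where Nodal, BMP and Wnt signals switch on T-box and homeobox factors such as Eomes, Mixl1 and Gsc. Cells that leave the streak take up mesenchymal genes and become heart, blood, vessel, somite or gut precursors.

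Between 9873 and 13463 of 45281 probes (21.8 to 29.7%) were detected per array, a probe counting as detected at a detection p under 0.01. The second ES array of day 2 was the lowest. Across genes, the 2 arrays of a group correlated at 0.965 to 0.982, and arrays of different groups at up to 0.985. The first principal component carried 46.4% of the variance and set day 7 apart from day 2 in every line, and the second carried 18.6% and set ES apart from both GPSC lots. Nothing in the labels says that the 2 arrays of a group came from separate cultures. P-values therefore measure how far these samples spread, and the spread within a group may be technical. RNA came from whole cultures, so more cells of a type and more RNA per cell cannot be told apart. Levels below are log2 normalised intensities, where a difference of 1 is a 2-fold change, and they are compared between arrays and not between genes.

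Of 10879 genes tested, 899 (8.26%) were higher and 652 (5.99%) were lower at day 7 than at day 2. A gene counted as called where it moved 2-fold or more with a Benjamini-Hochberg adjusted p under 0.05 in a limma fit with the line as a block. The residual spread of that fit also holds differences between lines in the change from day 2 to day 7. An error after ± beside a change is its SE. Of the called genes, 1526 of 1551 changed with the same sign in all 3 lines, and 324 rises and 243 falls were called in each line on its own. All 6 arrays of day 7 lay outside the range of the 6 arrays of day 2 for 613 of the rises and 431 of the falls, and for 1698 (15.6%) of all tested genes. Without the second ES array of day 2 there were 889 rises and 655 falls. When arrays were scaled to a common median in place of quantile normalisation, the median change of all genes moved to 0.133, against -0.027, and 76.2% of calls were rises, against 58.0%. The scanner signals without background correction gave 410 rises and 239 falls, of which 409 and 239 were among the calls above.

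The genes that fell together most were those of the pluripotent state. Of 19 tested naive pluripotency factors 13 fell and 1 rose (median change -1.98, against -0.027 for all tested genes), and of 17 general pluripotency factors 10 fell and 0 rose (median -1.87). Pou5f1 (Oct4), the factor that holds cells pluripotent, had levels from 10.78 to 12.64 with a median of 11.44 at day 7, against 13.57 to 14.38 with a median of 13.93 at day 2. The day 7 and day 2 arrays did not overlap, and the log2 change was -2.39 ± 0.26 (SE, adjusted p = 2.9e-05). It was still detected on all 6 arrays of day 7, as was Sox2, its partner on DNA, with a change of -2.27 ± 0.31 (adjusted p = 0.00016) and levels of 7.13 to 9.15 at day 7 against 10.02 to 11.18 at day 2.

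Nanog, the homeobox factor of the naive state, was detected on 1 of 6 arrays at day 7 and on 5 of 6 at day 2. Its levels were 4.59 to 6.06 (median 4.83) at day 7 and 5.21 to 8.40 (median 7.12) at day 2, with a change of -1.97 ± 0.38 (adjusted p = 0.002). Zfp42 (Rex1), a zinc finger factor used as a marker of naive cells, ran from 4.85 to 8.44 (median 7.26) at day 7 and from 8.99 to 11.31 (median 10.03) at day 2. The change of Zfp42 was -3.27 ± 0.38 (adjusted p = 4.9e-05). Utf1, a chromatin-bound protein of undifferentiated cells, fell by 3.59 ± 0.23 on the log2 scale (adjusted p = 9.5e-07). Gbx2, a homeobox factor downstream of LIF, had a change of -2.78 ± 0.38 (adjusted p = 0.00016). Fgf4, the autocrine growth factor of pluripotent cells, was detected on all 6 arrays of day 2 and on 0 of day 7, a fall of at least 6.66-fold (adjusted p = 1.1e-07). The 1 member that rose, Tbx3, also acts in limb, heart and liver mesoderm and endoderm, and had levels of 7.70 to 9.55 at day 7 against 4.87 to 6.45 at day 2.

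**Figure D1:**
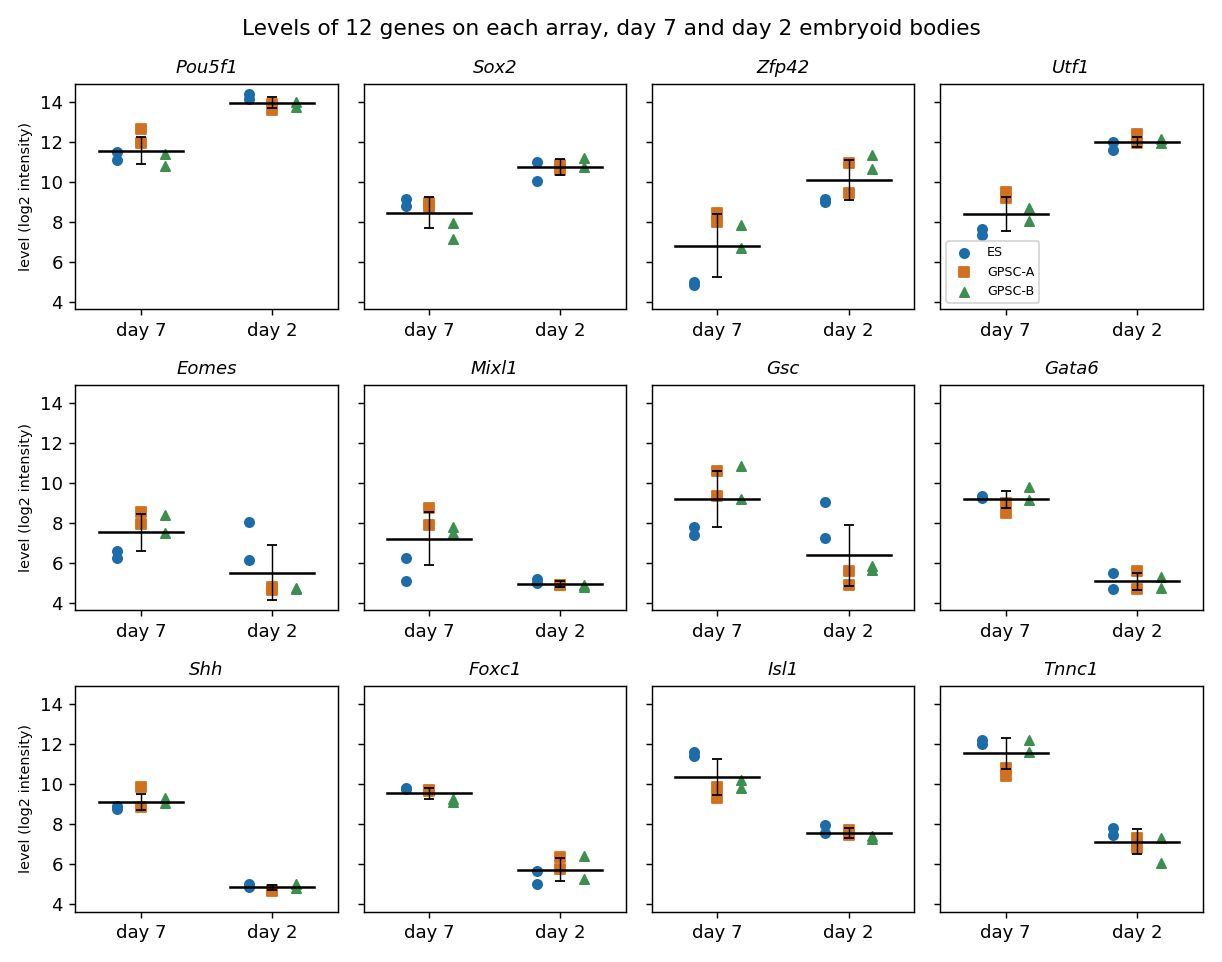
Levels (log2 normalised intensity) of 12 genes on each of the 12 arrays, day 7 left of day 2 in every panel. Points are single arrays, coloured by line, the bar is the mean of 6 arrays and the whisker its SD. Pou5f1, Sox2 and Utf1 are lower on every array of day 7, Gata6, Shh, Foxc1, Isl1 and Tnnc1 are higher on every array of day 7, and Eomes and Gsc overlap between days, with the ES arrays of day 2 above those of both GPSC lots.

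Genes of the primed epiblast, the state between naive cells and germ layers, moved apart from each other. Of 14 tested, 6 fell and 1 rose (median -0.63). Pou3f1 (Oct6), a POU factor of epiblast and early neural plate, had levels of 7.95 to 11.00 at day 7 against 11.85 to 12.66 at day 2, with a change of -2.60 ± 0.34 (adjusted p = 0.00011). Fgf5, the ligand most used to mark primed cells, was detected on all 12 arrays, from 6.26 to 9.66 at day 7 and from 7.83 to 8.96 at day 2, and its change of -0.48 ± 0.50 did not pass the test (adjusted p = 0.51). The Fgf5 arrays of the 2 days overlapped. By line the change of Fgf5 was -2.34 ± 0.60 in ES (adjusted p = 0.023). GPSC-A bodies had a change of 0.58 ± 0.60 and GPSC-B bodies one of 0.31 ± 0.60, neither of them called, and the test between lines was not passed (interaction adjusted p = 0.27). Zic2 and Sox3, neural plate factors also present in epiblast, had changes of -1.76 ± 0.31 and -1.87 ± 0.20 (adjusted p = 0.00091 and 2.8e-05).

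Primitive streak and organiser genes rose as a group in the GPSC lots and were mixed in ES bodies. Over all lines 9 of 18 tested members rose and 2 fell (median 1.25, or 0.56 with members undetected at a day set to their bound). Tested line by line, ES bodies had 3 rises and 3 falls, GPSC-A bodies 11 rises and 0 falls, and GPSC-B bodies 10 rises and 0 falls. Lhx1, a LIM homeobox factor of the organiser and anterior mesendoderm, had levels of 9.23 to 12.77 (median 12.07) at day 7 and 5.36 to 8.57 (median 5.97) at day 2. The change of Lhx1 was 5.13 ± 0.68 (adjusted p = 0.00013), and no array of day 7 fell within the range of day 2. Mixl1, a homeobox factor of streak mesendoderm, was detected on 5 of 6 arrays at day 7 and 0 of 6 at day 2, a rise of at least 2.17-fold (adjusted p = 0.0012). In ES bodies it had 6.25 and 5.07 at day 7 against 5.20 and 5.0 at day 2 and was not called there, while GPSC-A and GPSC-B bodies were at least 4.80-fold and 3.24-fold higher (interaction adjusted p = 0.06, which missed the threshold of the test between lines described below). Noggin (Nog), a secreted BMP antagonist of the organiser, was detected on 6 against 0 arrays, at least 4.32-fold higher at day 7 (adjusted p = 1.9e-06). Evx1, a posterior streak homeobox factor, had levels of 8.13 to 9.45 at day 7 against 5.82 to 8.47 at day 2, with a change of 2.19 ± 0.40 (adjusted p = 0.0014). T (brachyury) had no probe that passed the detection filter, so the best known streak marker was not tested.

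Eomes, the T-box factor of streak and definitive endoderm, differed between lines. In ES bodies it had levels of 6.22 and 6.60 at day 7 against 6.12 and 8.05 at day 2, so the days overlapped. In GPSC-A the levels were 7.93 and 8.52 at day 7 against 4.65 and 4.77 at day 2, and in GPSC-B 7.50 and 8.37 against 4.67 and 4.76, with no day 2 array of either lot detected. Eomes was thus called higher over all lines (2.02 ± 0.62, adjusted p = 0.026), and the call was lost without any 1 of the 8 GPSC arrays. Gsc (goosecoid), an organiser repressor, had the same layout: 7.37 and 7.78 at day 7 against 7.25 and 9.03 at day 2 in ES, 9.33 and 10.58 against 4.89 and 5.60 in GPSC-A, and 9.20 and 10.85 against 5.66 and 5.82 in GPSC-B. Its call (2.81 ± 0.78, adjusted p = 0.015) was lost without either lot. The test of whether the change from day 2 to day 7 differed between lines (the interaction of line and day, adjusted p under 0.05) was passed by 144 genes (1.32% of those tested). Among them were 4 of 18 streak genes, Eomes (adjusted p = 0.033), Gsc (0.031), Nodal (0.01) and Fst (0.036), and in all 4 both GPSC changes lay above the ES change.

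With the replicate number as a block over all lines 295 genes passed this test in place of 144, and with median scaling 22, all among the 144. Without the second ES array of day 2 there were 70, and without either ES array of day 7 there were 63. Eomes and Gsc stayed past the threshold with median scaling, and Nodal and Fst did not. Leaving out 1 of the 12 arrays at a time ended the line difference of Eomes for 10 arrays, of Fst for 9, of Gsc for 8 and of Nodal for 2. Nodal, the ligand that starts the streak, had levels of 9.86 and 10.25 at day 7 against 12.47 and 12.53 at day 2 in ES, and 11.83 and 11.76 against 11.64 and 11.85 in GPSC-A. In GPSC-B its levels were 11.29 and 11.25 at day 7 against 12.17 and 11.87 at day 2. The fall of Nodal over all lines (-1.05 ± 0.33, adjusted p = 0.027) was lost without any 1 of the 4 ES arrays.

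Definitive endoderm was the list with the largest share of rises among the 38 examined, 12 of 20 tested members, against 0 falls (median 1.55, or 0.66 with bounds). Gata6, a zinc finger factor of endoderm and heart, had levels of 8.48 to 9.79 (median 9.19) at day 7 and 4.68 to 5.59 (median 5.01) at day 2, where no array detected it. This is a rise of at least 8.42-fold (adjusted p = 6e-07). Shh, the hedgehog ligand of gut endoderm, node and notochord, was detected on 6 arrays at day 7 and on 0 at day 2, at levels of 8.74 to 9.85 against 4.65 to 5.01, at least 8.09-fold higher (adjusted p = 9.6e-08). Sox17, the HMG-box factor that defines endoderm and is shared with endothelium, was detected on 4 against 0 arrays, with levels of 4.56 to 7.26 at day 7 and 4.61 to 4.85 at day 2 (adjusted p = 0.012). Sox17 was detected on both GPSC-A and both GPSC-B arrays of day 7, and the call was lost without either lot. Gata4 was detected on 3 against 0 arrays and was not called. Its means of 5.64 at day 7 and 4.66 at day 2 lay just under 2-fold apart. In some other settings it was called higher, such as median scaling (1.06, adjusted p = 0.016 in the limma fit). Foxa2 and Cxcr4 had no probe that passed the filter.

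The keratins of simple epithelia, which the endoderm list shares with the ectoderm list, rose on every array. Krt8 had levels of 8.93 to 11.30 at day 7 against 6.57 to 7.37 at day 2 (change 3.33 ± 0.28, adjusted p = 4.8e-06). Its partner Krt18 had levels of 8.32 to 10.40 against 5.14 to 6.89 (change 3.35 ± 0.21, adjusted p = 7.4e-07), and Krt19 9.42 to 11.13 against 4.83 to 7.45 (change 4.42 ± 0.27, adjusted p = 7.6e-07). Sox9, a factor of endoderm progenitors, cartilage and neural crest, changed by 3.39 ± 0.34 (adjusted p = 1.6e-05). Krt42, a type I keratin, went the other way with a change of -3.83 ± 0.21 (adjusted p = 4e-07). Of 33 tested members of the list of early liver and fetal secreted proteins 3 rose (9.09%) and 4 fell (12.1%). The shares among all tested genes were 8.26% and 5.99%. In this list 17 members were detected on none of the 12 arrays, among them Afp (alpha-fetoprotein). Apoc1, an apolipoprotein of the same list, had levels of 7.06 to 9.01 at day 7 against 9.69 to 10.83 at day 2 (change -2.34 ± 0.22, adjusted p = 9.9e-06).

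**Figure D2:**
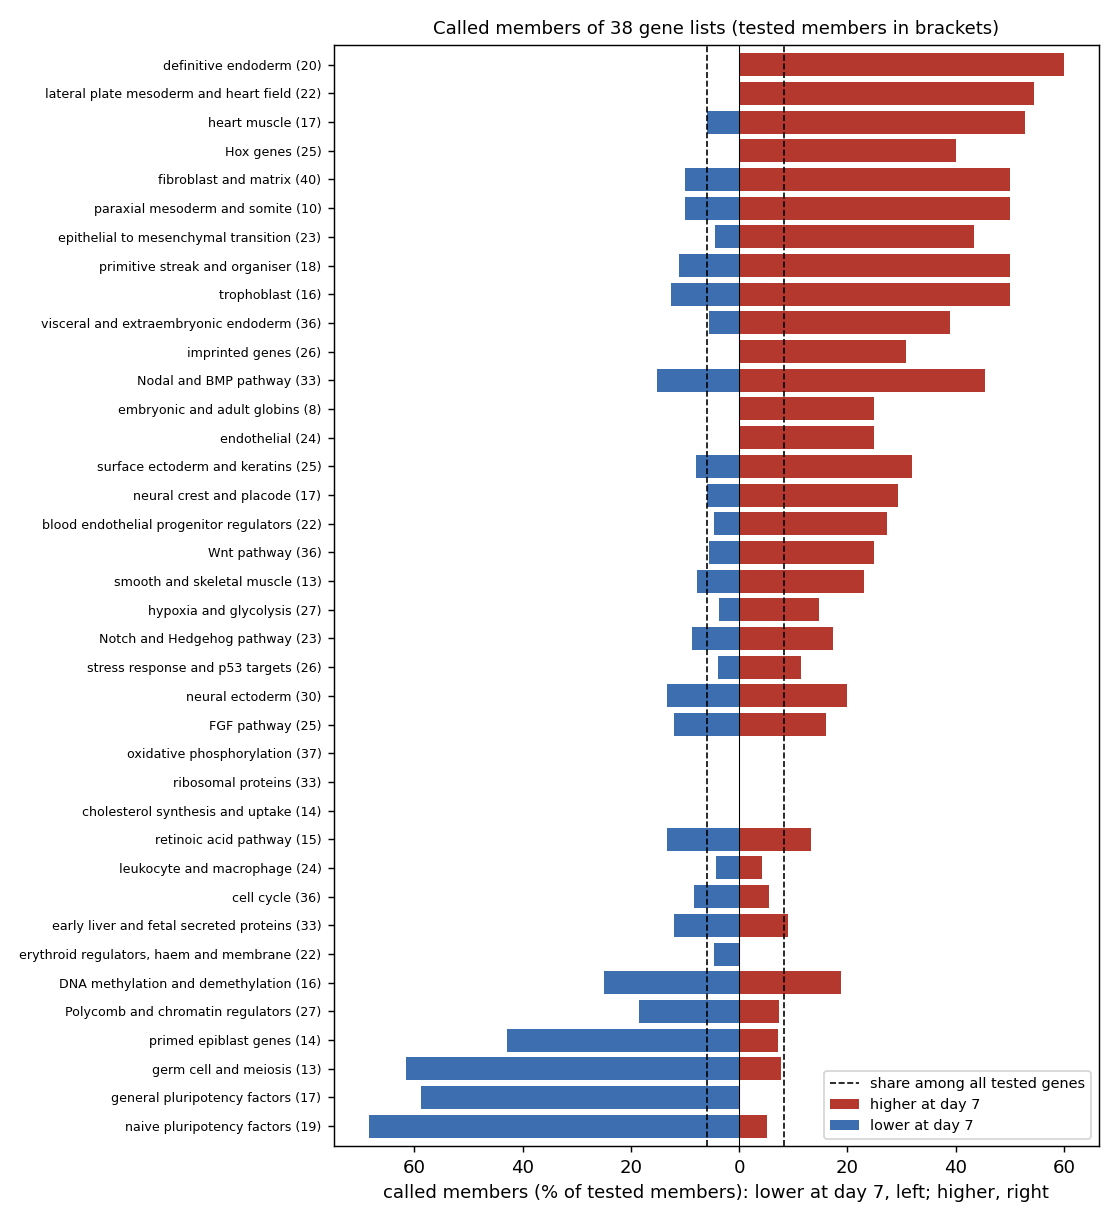
Share of tested members of each of 38 gene lists called higher (right, red) or lower (left, blue) at day 7 than at day 2, in percent, with the number of tested members in brackets. Dashed lines mark the shares among all 10879 tested genes, 8.26% higher and 5.99% lower. Definitive endoderm, lateral plate and heart muscle lie at the top, the pluripotency and germ cell lists at the bottom, and ribosomal, oxidative phosphorylation and cholesterol genes have no called member.

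Mesoderm of several kinds was higher at day 7. Of 22 tested lateral plate and heart field genes 12 rose and 0 fell over all lines (median 1.57, or 0.83 with bounds). Their rises were most numerous for ES bodies, 18 of 22, against 7 for GPSC-A bodies and 11 for GPSC-B bodies. No member was called lower for any line. ES also had the most rises among all tested genes, 8.85%, against 5.18% in GPSC-A and 6.68% in GPSC-B. Tcf21, Prrx1 and Twist2 passed the test between lines, each with both GPSC changes below the ES change. With median scaling 0 members of this list passed. Of 10 paraxial mesoderm and somite genes 5 rose and 1 fell (median 1.20, or 0.32 with bounds). Foxc1, a forkhead factor of somite and head mesoderm, had levels of 9.10 to 9.78 (median 9.66) at day 7 against 4.98 to 6.38 (median 5.70) at day 2, a change of 3.82 ± 0.24 (adjusted p = 8.2e-07). Cyp26a1, the enzyme that clears retinoic acid around the streak and tail bud, changed by 4.84 ± 0.32 (adjusted p = 9.5e-07), with levels of 8.31 to 11.09 against 4.78 to 6.07. The 1 paraxial member that fell was Tcf15 (Paraxis), a somite bHLH factor also known from epiblast priming, with levels of 6.74 to 8.76 against 10.96 to 11.58 (change -3.71 ± 0.23, adjusted p = 7.4e-07).

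Isl1, a LIM homeobox factor of the second heart field, had levels of 9.32 to 11.57 (median 10.02) at day 7 and 7.24 to 7.96 (median 7.49) at day 2, a change of 2.81 ± 0.25 (adjusted p = 7.1e-06). Tbx20, a T-box factor of the heart, was detected on 5 against 0 arrays and was at least 2.42-fold higher at day 7 (adjusted p = 0.00038). Hand1, a bHLH factor of heart, lateral plate and trophoblast, was detected on 4 against 0 arrays, at least 1.94-fold higher (adjusted p = 0.001). Msx1, a BMP-induced homeobox factor, changed by 3.54 ± 0.28 (adjusted p = 3.6e-06). Nkx2-5, the homeobox factor of committed heart cells, was detected on 1 array at each day and did not pass the test (adjusted p = 0.46).

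Genes of the contractile apparatus were higher as well. In the heart muscle list 9 of 17 tested genes rose and 1 fell (median 1.47, or 0.76 with bounds). Tnnc1, the calcium sensor of slow and cardiac muscle, had levels of 10.38 to 12.21 (median 11.78) at day 7 against 6.05 to 7.81 (median 7.30) at day 2, a change of 4.40 ± 0.29 (adjusted p = 1.1e-06). Actc1, cardiac alpha-actin, changed by 2.73 ± 0.37 (adjusted p = 0.00015) with levels of 8.39 to 9.25 against 4.88 to 7.43. Myl3, a ventricular light chain, changed by 2.96 ± 0.42 (adjusted p = 0.00023). Csrp3 (muscle LIM protein) differed between lines (interaction adjusted p = 0.0051): it was undetected on every ES array, and had 8.15 and 7.10 at day 7 against 5.08 and 4.62 at day 2 in GPSC-A, and 8.76 and 8.92 against 4.60 and 4.62 in GPSC-B. Without either lot the call of Csrp3 over all lines was lost.

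The smooth and skeletal muscle list had 3 rises and 1 fall among 13 tested genes, and held the largest rise of any gene detected at both days. Acta2, smooth muscle alpha-actin, had levels of 15.23 to 15.58 (median 15.54) at day 7 and 8.76 to 10.09 (median 9.31) at day 2, a change of 6.11 ± 0.23 (adjusted p = 2.8e-08). Acta1, skeletal alpha-actin, had levels of 7.76 to 11.51 (median 10.60) at day 7 against 4.81 to 6.62 (median 5.39) at day 2, a change of 4.44 ± 0.43 (adjusted p = 1.3e-05). Tagln, an actin-bound protein of smooth muscle, changed by 3.68 ± 0.39 (adjusted p = 2.4e-05), and Mylpf, a fast skeletal light chain, by -2.58 ± 0.34 (adjusted p = 0.00012). Levels at day 2 were low against untreated cells as well, where Acta2 averaged 15.2 over the 3 lines.

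The promoters of Acta1 and Actc1 are shown because both actins rose together and because a match to the CArG box, the site of serum response factor, stands in each close to the start. They are RefSeq sequences of build GRCm38.p6, from 250 bases before to 50 bases after the start, written 5′ to 3′ on the strand of the gene with the CArG match in capitals. Acta1 lies on the minus strand at chr8:123894726-123895025 with the match starting at base -73, and Actc1 on the minus strand at chr2:114052826-114053125 with the match at -47.
Acta1: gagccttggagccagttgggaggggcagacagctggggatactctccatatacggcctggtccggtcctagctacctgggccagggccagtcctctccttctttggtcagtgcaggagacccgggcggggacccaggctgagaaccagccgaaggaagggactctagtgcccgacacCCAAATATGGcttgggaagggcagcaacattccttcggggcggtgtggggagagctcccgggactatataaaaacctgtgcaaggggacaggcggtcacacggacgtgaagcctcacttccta
Actc1: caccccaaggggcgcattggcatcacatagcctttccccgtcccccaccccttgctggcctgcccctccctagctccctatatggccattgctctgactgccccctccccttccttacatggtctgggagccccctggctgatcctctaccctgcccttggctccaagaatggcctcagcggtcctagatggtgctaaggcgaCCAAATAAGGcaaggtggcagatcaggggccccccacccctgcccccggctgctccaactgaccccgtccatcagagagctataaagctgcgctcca
The CArG box was searched after the values were seen. It was present in 1.57% of 27025 promoters of the same length, in 2 of 9 called heart muscle genes with a promoter in the table (Myl3 and Actc1) and in 1 of 3 called smooth and skeletal muscle genes (Acta1). These counts take called genes of either direction. Acta2, the actin that rose most, held no match in this window, nor did Mylpf, which fell, and Tagln had no promoter in the table. A match is a run of letters, not proof of binding.

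From day 2 to day 7, blood and vessel genes rose mainly in ES bodies. Over all lines 6 of 24 tested endothelial genes rose and 0 fell (median 0.31, or 0 with bounds). Within ES bodies 15 of the 24 rose and 0 fell, among GPSC-A bodies 2 rose and 3 fell, and among GPSC-B bodies 4 rose and 3 fell. Of all tested genes, ES bodies had rises of 8.85% and falls of 6.24%, GPSC-A bodies rises of 5.18% and falls of 3.55%, and GPSC-B bodies rises of 6.68% and falls of 5.37%. The difference between lines was passed by 8 of the 24 endothelial genes (33.3%) and 6 of 8 globins (75.0%), and in all 14 both GPSC changes lay below the ES change. With median scaling 1 of the 8 endothelial genes (Icam2) and 5 of the 6 globins still passed.

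Hba-x (zeta-globin), the embryonic alpha chain of primitive red cells, had levels of 12.16 and 11.88 at day 7 against 5.02 and 4.73 at day 2 in ES bodies, at least 53.8-fold higher. In GPSC-A it was undetected at both days, at 4.46 and 4.88 against 4.57 and 4.88. In GPSC-B it was detected on 1 array of day 7, at 4.66 and 7.01 against 4.63 and 4.85. Hbb-bh1, an embryonic beta chain, had 12.11 and 11.86 at day 7 against 5.49 and 5.06 at day 2 in ES, and 7.45 and 9.69 against 5.0 and 4.73 in GPSC-B, at least 52.7-fold and 6.06-fold higher, and was undetected in GPSC-A. The line difference had adjusted p-values of 0.0043 for Hba-x and 0.006 for Hbb-bh1. Hbb-y, the other embryonic beta chain, was at least 4.98-fold higher at day 7 in ES and undetected in both lots (0.0079). The adult chains Hba-a1, Hbb-bt and Hbb-bs moved with them (0.0079, 0.0073 and 0.006), but near-identical copies may share signal at those probes. The call of Hba-x over all lines (at least 2.66-fold, adjusted p = 0.047) was lost without any 1 of 7 arrays, the 4 of ES and 3 of GPSC-B, with median scaling (adjusted p = 0.063) and when arrays of 1 number were blocked in each line (adjusted p = 0.084). Of the 22 tested regulators, haem enzymes and membrane proteins of red cells, 5 rose in ES bodies, 0 in either lot and 0 over all lines.

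The promoters of Hba-x and Hbb-y are shown as members of the globin set that moved together. They come from the same RefSeq table, Hba-x on the plus strand at chr11:32276350-32276649 and Hbb-y on the minus strand at chr7:103853158-103853457. Capitals mark the GATA site (AGATAA or TGATAA, either strand) bound by Gata1, and the CACCC box bound by Klf1, on either strand. The 2 motifs do not overlap in either promoter.
Hba-x: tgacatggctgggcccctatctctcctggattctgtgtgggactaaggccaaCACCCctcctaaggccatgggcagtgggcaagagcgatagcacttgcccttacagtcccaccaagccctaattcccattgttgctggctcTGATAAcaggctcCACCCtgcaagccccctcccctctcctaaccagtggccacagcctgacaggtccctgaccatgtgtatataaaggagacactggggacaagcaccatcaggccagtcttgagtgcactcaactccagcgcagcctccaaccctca
Hbb-y: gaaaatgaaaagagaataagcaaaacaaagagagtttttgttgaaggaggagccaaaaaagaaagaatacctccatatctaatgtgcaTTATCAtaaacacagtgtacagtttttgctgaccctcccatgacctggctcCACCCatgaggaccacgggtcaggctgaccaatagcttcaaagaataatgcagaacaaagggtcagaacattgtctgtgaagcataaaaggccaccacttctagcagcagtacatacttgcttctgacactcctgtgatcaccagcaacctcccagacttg
A GATA site was found in 4 of the 5 globins with a line difference that had a promoter in the table, against 19% of all promoters, and a CACCC box in 5 of 5, against 56.7%. Among other red cell genes the 1 called gene, which fell, held a CACCC box and no GATA site. The T-box motif TCACAC (either strand), also searched after the values were seen, was found in 1 of 7 called streak genes with a promoter, against 14.4% of all promoters. The GATA match starts at -108 in Hba-x and at -162 in Hbb-y.

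Among vessel genes, Cdh5 (VE-cadherin), the adhesion protein of endothelial junctions, had levels of 8.54 and 8.40 at day 7 against 4.80 and 4.90 at day 2 in ES bodies, at least 4.61-fold higher, and was undetected in both lots at both days (interaction adjusted p = 0.0027). Tie1, an endothelial receptor, had the same layout, at least 3.48-fold higher in ES bodies (0.0027). Icam2, an adhesion molecule of endothelium and platelets, was at least 11.8-fold higher in ES bodies at day 7 (0.003). Its call over all lines (at least 1.76-fold, adjusted p = 0.045) was lost without any 1 of 9 arrays, with median scaling (adjusted p = 0.056) and with the same block (adjusted p = 0.082). Cldn5, a tight junction protein, and Plvap, a protein of vessel fenestrae, rose in ES bodies and fell in both lots. Plvap had 10.24 and 10.66 at day 7 against 9.0 and 9.27 at day 2 in ES, 7.93 and 7.65 against 9.92 and 9.53 in GPSC-A, and 7.59 and 7.23 against 9.55 and 9.63 in GPSC-B (0.0027).

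Of 22 tested regulators of blood and vessel precursors 6 rose and 1 fell over all lines. ES bodies had 7 rises and 0 falls, and GPSC-A and GPSC-B bodies had 2 rises and 1 fall each. The test between lines was passed by 4 of them (18.2%), Tal1, Fli1, Nfe2 and Itga2b (interaction adjusted p = 0.04, 0.0057, 0.0045 and 0.017), with both GPSC changes below the ES change, and by 0 with median scaling. Tal1, the bHLH factor that specifies blood, had 8.05 and 7.84 at day 7 against 5.74 and 5.61 at day 2 in ES, at least 3.20-fold higher, and was detected on 1 of 8 GPSC arrays. Its difference between lines was lost without any 1 of the 8 arrays of ES and GPSC-A, and that of Itga2b without 4 of those. Ets1, Aplnr, Runx1 and Etv2 changed with the same sign in each line. Ets1, an ETS factor of endothelium and mesenchyme, had levels of 11.04 to 11.77 at day 7 against 8.35 to 9.34 at day 2 (change 2.74 ± 0.19, adjusted p = 1.1e-06). Aplnr, the apelin receptor of mesoderm and vessel precursors, was detected on 6 against 0 arrays, at least 5.16-fold higher at day 7 (adjusted p = 6.2e-07). Runx1, a regulator of blood stem cells, was detected on 5 against 0 arrays, at least 1.27-fold higher (adjusted p = 0.00023). Etv2, the ETS factor that starts the blood and vessel programme, was lower, with levels of 8.65 to 10.04 against 10.55 to 11.67 and a change of -1.58 ± 0.25 (adjusted p = 0.0005). Kdr, the VEGF receptor that marks these precursors, was detected on 1 array at day 7 and 2 at day 2 and was not called (adjusted p = 0.5). Of 24 leukocyte and macrophage genes 1 rose and 1 fell (4.17% each, against 8.26% and 5.99% of all tested genes), and 11 were detected on no array.

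**Figure D3:**
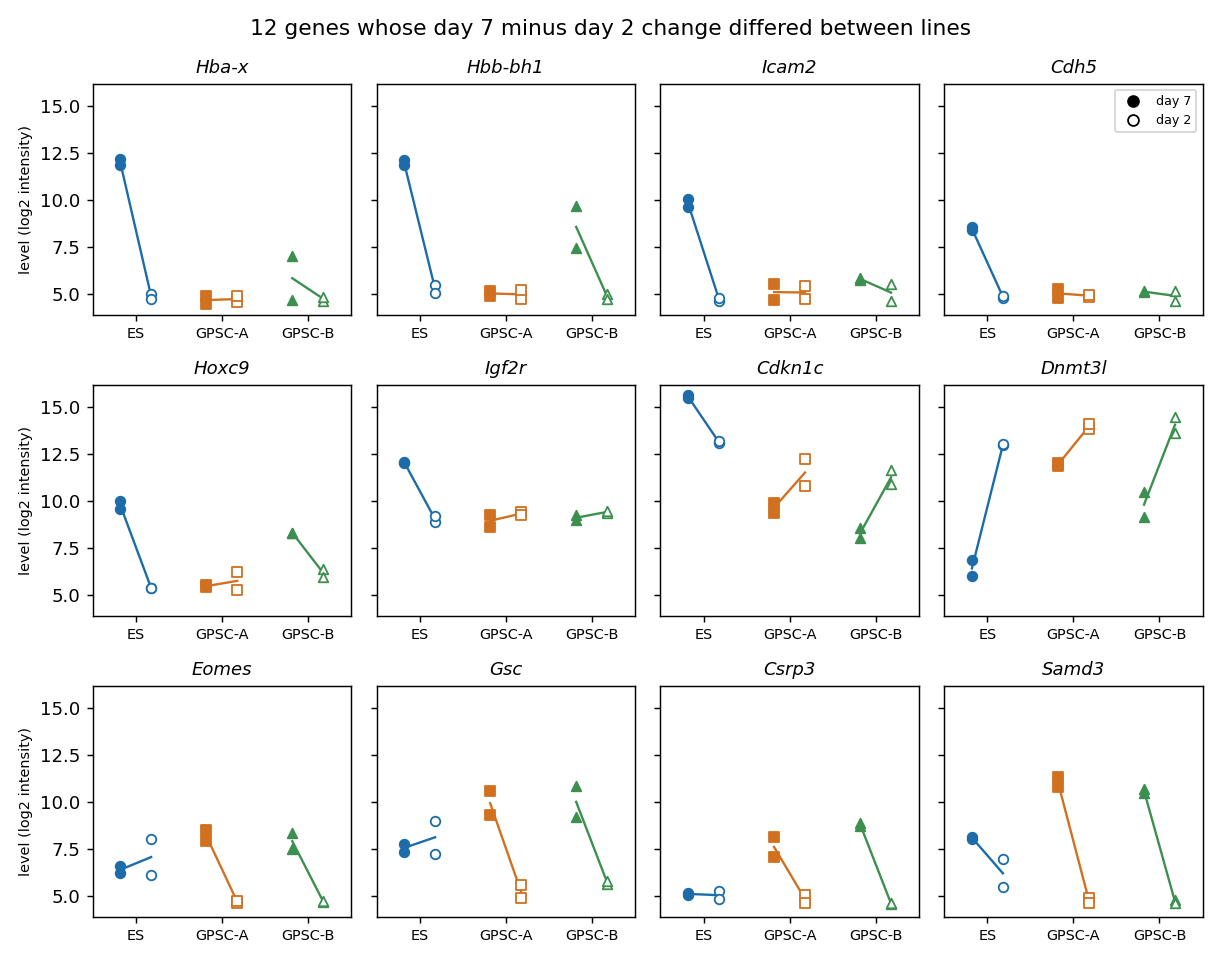
Levels (log2 normalised intensity) of 12 genes that passed the test of a line difference, by line, with day 7 (filled) left of day 2 (open) and a line joining the means of 2 arrays. Hba-x, Icam2, Cdh5 and Igf2r are high on the ES arrays of day 7, Dnmt3l drops furthest in ES, Eomes, Gsc and Csrp3 climb in both GPSC lots and not in ES, and Samd3 climbs in all lines, least in ES.

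Hox genes and imprinted genes also split by line. Of 25 tested Hox, Cdx and Meis genes 10 rose and 0 fell over all lines (median 0.81, or 0.63 with bounds), ES bodies had 14 rises, GPSC-A bodies 3 and GPSC-B bodies 7, and 8 passed the test of a line difference (32%). Hoxc9, a trunk Hox gene, had 9.58 and 10.02 at day 7 against 5.38 and 5.37 at day 2 in ES, 5.51 and 5.44 against 5.29 and 6.22 in GPSC-A, and 8.31 and 8.33 against 6.40 and 5.96 in GPSC-B (interaction adjusted p = 0.0027). The ES arrays of day 7 were highest, those of GPSC-B next, and GPSC-A overlapped between days. The call of Hoxc9 over all lines was lost without ES or without GPSC-B. With median scaling 2 Hox list members passed the line test, Hoxc9 among them.

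Of 26 tested imprinted genes 8 rose and 0 fell over all lines, and 7 (26.9%) differed between lines, each with both GPSC changes below that of ES. Igf2, the paternally expressed growth factor, rose in every line, with levels of 14.57 to 15.77 (median 15.11) at day 7 against 9.61 to 11.97 (median 11.17) at day 2 and a change of 4.27 ± 0.38 (adjusted p = 6.9e-06). Igf2r, the maternally expressed receptor that removes Igf2, had 12.06 and 12.11 at day 7 against 8.89 and 9.19 at day 2 in ES, and lay between 8.64 and 9.50 on all 8 GPSC arrays (interaction adjusted p = 0.0027). Cdkn1c (p57), a maternally expressed cell cycle inhibitor, had 15.50 and 15.64 against 13.10 and 13.18 in ES, but 9.38 and 9.93 against 10.81 and 12.24 in GPSC-A and 8.03 and 8.55 against 10.89 and 11.65 in GPSC-B (0.0048). Of these 7 imprinted genes, Cdkn1c alone passed with median scaling. Peg3, a paternally expressed zinc finger gene, changed by 2.36 ± 0.25 (adjusted p = 2.7e-05), and Nnat, a paternally expressed membrane protein, by 2.49 ± 0.15 (adjusted p = 6.2e-07).

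Over all 144 genes with a line difference, 100 had both GPSC changes below the ES change, 42 both above and 2 divided, and in 52 the ES change had the opposite sign to both lots. The changes of GPSC-B and GPSC-A differed from each other for 1 gene (0.00919% of those tested), against 185 (1.70%) for GPSC-A minus ES and 113 (1.04%) for GPSC-B minus ES. Pluripotency genes were among the 42. Dnmt3l, the cofactor of de novo methylation, had 5.99 and 6.85 at day 7 against 12.97 and 13.02 at day 2 in ES, 12.04 and 11.86 against 13.84 and 14.13 in GPSC-A, and 9.15 and 10.48 against 13.65 and 14.49 in GPSC-B (interaction adjusted p = 0.015). Dppa5a, an RNA-binding protein of pluripotent cells, had line changes of -6.55 ± 0.50 (ES), -1.76 ± 0.50 (GPSC-A, not called on its own) and -3.31 ± 0.50 (GPSC-B, interaction 0.017). The naive factor Esrrb was called lower in each line, with the smallest change in GPSC-A (-1.47 ± 0.25, interaction 0.014). Neither Esrrb nor Dppa5a passed the test between lines with median scaling (interaction adjusted p = 1.0 and 0.3) or in a model of all 42 arrays (0.31 and 0.052). Both also missed it without certain single arrays, Esrrb without the second ES array of day 7 or any of the 4 GPSC-A arrays, and Dppa5a without either ES array of day 2, the second GPSC-A array of day 2 or the first of day 7. Dnmt3l passed with median scaling and missed it without any 1 of 5 arrays, 2 of ES and 3 of GPSC-A. Fmo1, a flavin monooxygenase, had the smallest p of all, with 9.94 and 10.11 at day 7 in ES against 4.94 and 5.28 at day 2 and no detected GPSC array (0.00059). Samd3, a SAM domain gene, rose in all lines (0.0063), with a change of 1.90 ± 0.42 in ES, while bounds of at least 32.5-fold for GPSC-A and 25.1-fold for GPSC-B applied to the lots.

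Ectoderm gave a divided result. Of 25 surface ectoderm and keratin genes 8 rose and 2 fell, of 30 neural ectoderm genes 6 rose and 4 fell (median -0.005), and of 17 neural crest and placode genes 5 rose and 1 fell. Krt14, a keratin of basal epidermis, had levels of 6.77 to 8.21 at day 7 against 5.02 to 6.48 at day 2 (change 2.14 ± 0.23, adjusted p = 2.5e-05). Nkx6-1, a homeobox factor of ventral neural tube and pancreas, had 8.17 to 8.55 against 4.69 to 5.99 (change 3.10 ± 0.22, adjusted p = 1.3e-06). Elavl3, an RNA-binding protein of neurons, was lower, with 5.39 to 6.19 against 8.03 to 9.07 (change -2.84 ± 0.19, adjusted p = 1.1e-06). The neural plate factors Pax6 and Sox1 had no probe that passed the filter.

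Several BMP and Wnt ligands rose, and Gdf1, Gdf3 and both Lefty genes of the Nodal branch fell. Of 33 tested Nodal and BMP pathway genes 15 rose and 5 fell (median 0.99, or 0.54 with bounds). Among ligands, Bmp4, which induces mesoderm, had levels of 11.94 to 13.59 (median 13.15) at day 7 against 9.22 to 10.02 (median 9.59) at day 2, a change of 3.42 ± 0.24 (adjusted p = 1.2e-06), and Bmp7 changed by 2.74 ± 0.22 (adjusted p = 3.9e-06). All 5 members that fell are ligands or antagonists of the Nodal branch: Nodal, Lefty1, Lefty2, Gdf1 and Gdf3. The call of Nodal was lost in 10 of 27 other settings, among them median scaling (-0.87, adjusted p = 0.17), the authors' series matrix (-0.95, under 2-fold) and a replicate block in each line (adjusted p = 0.055), and its change in GPSC-A was 0.05 ± 0.24. Lefty1, a secreted inhibitor that Nodal induces, had levels of 9.15 to 11.49 at day 7 against 12.90 to 13.64 at day 2 (change -2.87 ± 0.27, adjusted p = 1e-05). Gdf3, a Nodal-like ligand, fell by 3.63 ± 0.35 on the log2 scale (adjusted p = 1.1e-05), and Gdf1, its close relative, by 3.01 ± 0.20 (adjusted p = 9.5e-07).

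Of 36 tested Wnt pathway genes 9 rose and 2 fell (median 0.31, or 0.02 with bounds). Wnt5a, a non-canonical ligand of gastrulation movements, had levels of 10.82 to 12.98 at day 7 against 7.60 to 9.19 at day 2 (change 3.81 ± 0.36, adjusted p = 1.1e-05). Rspo3, a secreted enhancer of Wnt signals, changed by 3.48 ± 0.22 (adjusted p = 7.9e-07), and Nkd1, a feedback inhibitor that Wnt induces, by 2.31 ± 0.34 (adjusted p = 0.00029). In the FGF list 4 of 25 genes rose and 3 fell. Fgf10, the mesenchymal ligand of limb, lung and second heart field, had 9.64 to 10.86 against 5.76 to 6.71 (change 4.07 ± 0.26, adjusted p = 9.2e-07), and Etv5, an ETS factor that FGF signals induce, fell by 1.75 ± 0.14 (adjusted p = 4.1e-06). Of 23 Notch and Hedgehog genes 4 rose (17.4%) and 2 fell (8.7%), and of 15 retinoic acid genes 2 rose and 2 fell (13.3% each). Shares among all tested genes were 8.26% for rises and 5.99% for falls, and lists this short differ from them by few genes.

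Matrix and mesenchymal genes rose widely. Of 40 tested fibroblast and matrix genes 20 rose and 4 fell over all lines (median 1.22). Line by line, this list had 24 rises and 2 falls (ES), 13 and 4 (GPSC-A), and 12 and 6 (GPSC-B). Shares of rises and falls among all tested genes were 8.85% and 6.24% (ES), 5.18% and 3.55% (GPSC-A), and 6.68% and 5.37% (GPSC-B). The test between lines was passed by 7 of the 40, and by 0 with median scaling. Of these 7, both GPSC changes lay below the ES change for 6 and above it for 1. Of 23 genes of the epithelial to mesenchymal transition 10 rose and 1 fell (median 0.70). Snai1, the zinc finger repressor that starts the transition at the streak, had levels of 8.13 to 8.56 at day 7 against 5.71 to 6.54 at day 2 (change 2.16 ± 0.18, adjusted p = 4.3e-06). Vim (vimentin), the filament protein of mesenchyme, changed by 2.81 ± 0.17 (adjusted p = 6.2e-07), with 12.79 to 13.42 against 9.73 to 10.82. Serpinh1, the collagen chaperone, had 13.03 to 14.86 against 9.75 to 12.18 (change 2.83 ± 0.18, adjusted p = 7.8e-07). Col4a1 and Col4a2, the basement membrane collagen chains, changed by 2.61 ± 0.31 and 2.65 ± 0.31 (adjusted p = 5.1e-05 for each). Cdh1 (E-cadherin) was detected on 3 arrays at day 7 and 5 at day 2 and was not called (-0.39 ± 0.31, adjusted p = 0.39), and Cdh2 (N-cadherin) was detected on no array. The Cdh1 mean was 5.82 even in untreated cells, near the lowest detected signals of the 12 arrays (5.70 to 6.75). This probe could therefore show little of a fall. Thy1, a surface protein of fibroblasts and other cells, fell by 2.50 ± 0.27 (adjusted p = 2.7e-05).

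Among marker lists of other cells, the sums of the fibroblast, muscle and visceral endoderm lists moved with the day. Those of the trophoblast and leukocyte lists overlapped between days. The part of all these lists in the results was not tested. The summed normalised intensity of the 40 fibroblast and matrix genes, in units of 1000, ran from 68.0 to 106.0 at day 7 and from 17.1 to 39.6 at day 2, and from 75.7 to 148.0 in untreated cells, with 3 members detected on none of the 12 arrays. For the 13 smooth and skeletal muscle genes it ran from 44.0 to 54.9 at day 7, 2.93 to 5.81 at day 2, with a median of 45.2 in untreated cells. Acta2 alone carried most of that sum at day 7, with mean log2 levels of 15.49 at day 7 and 9.38 at day 2. Of the 13 members 3 rose and 1 fell, with a median change of 0.56. For 36 visceral and extraembryonic endoderm genes the sum ran from 24.6 to 36.7 at day 7 and 6.44 to 12.8 at day 2. This list had 14 rises (38.9%) and 2 falls (5.56%), with Afp at background on every array. For 16 trophoblast genes the ranges, 6.93 to 21.4 at day 7 and 6.64 to 15.7 at day 2, overlapped, with 8 rises and 2 falls. For 24 leukocyte genes the ranges overlapped as well, 1.53 to 4.2 against 1.89 to 2.64.

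DNA methylation and chromatin genes changed in both directions, and germ cell genes mostly fell. Cell cycle genes were called near the share of all tested genes, which was 8.26% for rises and 5.99% for falls. Of 16 DNA methylation genes 3 rose (18.8%) and 4 fell (25.0%). Dnmt3b, the de novo methyltransferase of epiblast, had levels of 12.88 to 14.20 at day 7 against 14.23 to 14.78 at day 2 (change -1.20 ± 0.19, adjusted p = 0.00052; the call was lost without ES), and Tet1, which oxidises methylcytosine, fell by 1.90 ± 0.19 (adjusted p = 1.6e-05). Of 27 Polycomb and chromatin genes 2 rose (7.41%) and 5 fell (18.5%), with Cbx7, the Polycomb reader of pluripotent cells, at -2.62 ± 0.24 (adjusted p = 7.8e-06). Of 36 cell cycle genes 2 rose (5.56%) and 3 fell (8.33%). Ccnd2 (cyclin D2) changed by 2.43 ± 0.17 (adjusted p = 1.4e-06), and Ccne1 (cyclin E1) by -1.94 ± 0.15 (adjusted p = 2.9e-06). Of 13 germ cell and meiosis genes 8 fell and 1 rose (median -1.48, or -1.06 with bounds). Tdrd12, a Tudor protein of the piRNA pathway, had 5.64 to 9.06 at day 7 against 10.16 to 11.64 at day 2 (change -3.40 ± 0.31, adjusted p = 7.3e-06). Tex19.1, which restrains retrotransposons, fell by 3.24 ± 0.28 (adjusted p = 5.3e-06). None of 33 ribosomal protein genes, 37 oxidative phosphorylation genes or 14 cholesterol synthesis and uptake genes was called by the limma fit. At an unadjusted p under 0.05 and with no minimum fold, 1 ribosomal gene was higher and 8 lower, 1 oxidative phosphorylation gene higher and 3 lower, and 3 cholesterol genes higher and 0 lower.

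The largest changes of all lay partly outside these lists. Among genes undetected on every array of day 2 and detected on every array of day 7, Klhl6, a Kelch-family adaptor, was at least 47.4-fold higher at day 7, with levels of 11.19 to 12.49 against 5.02 to 5.69 (adjusted p = 1.1e-09). Unc5c, a netrin receptor, was at least 24.6-fold higher (adjusted p = 3.6e-06), and Rgs5, a G protein regulator of pericytes, at least 12.2-fold (adjusted p = 1.1e-06). Pmp22, a myelin protein also present in mesenchyme, had levels of 9.77 to 12.55 against 5.94 to 6.90 (change 5.20 ± 0.36, adjusted p = 1.2e-06), and Nrp1, a receptor for semaphorins and VEGF, changed by 4.58 ± 0.36 (adjusted p = 3.4e-06). Among falls, Pla2g1b, a secreted phospholipase, had 8.26 to 9.34 at day 7 against 12.91 to 13.10 at day 2 (change -4.37 ± 0.17, adjusted p = 3.2e-08). Mgp (matrix Gla protein) changed by -4.32 ± 0.71 (adjusted p = 0.00059), being at least 33.6-fold lower in GPSC-A, with a change of -5.35 ± 0.76 in GPSC-B and of -1.52 ± 0.76, not called, in ES. Mgp did not pass the test between lines. Zscan4c, a gene of the early-embryo-like state of some ES cells, was detected on 6 arrays of day 2 and 0 of day 7, at least 15.6-fold lower at day 7 (adjusted p = 2e-07), and near-identical copies may share its signal. Mt3, a metallothionein, was at least 8.88-fold lower (adjusted p = 3.2e-05), and Nphs1 (nephrin), an adhesion protein known from kidney, at least 8.36-fold (adjusted p = 6.2e-07).

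Levels on the other days of culture place the step in time. Of the 899 genes that rose from day 2 to day 7, 245 (27.3%) had their highest mean over the 3 lines at day 7, 234 at day 14, 152 at day 21 and 255 at day 28, and 13 were highest in untreated cells. These shares use the arrays that made the calls and are a description. They do not show how near untreated cells lay to day 7. Hoxc9 averaged 7.50 in untreated cells, 5.77 at day 2 and 7.86 at day 7, and Vim 12.57, 10.37 and 13.17. Gata6 was unlike them, with 5.76, 5.08 and 9.17. Streak and organiser genes peaked at day 7 in 8 of their 9 rises, among them Mixl1. Its means at day 7 and day 14 were 8.31 and 5.21 for GPSC-A, 7.66 and 5.12 for GPSC-B, and 5.66 and 4.81 for ES. Fibroblast and matrix genes peaked at day 7 in 0 of 20 rises and at day 21 in 12. Isl1 was highest at day 7 in ES, with a mean of 11.48, and at day 14 in GPSC-A and GPSC-B, with 11.89 and 12.16. Hba-x and Cdh5, low in both lots at day 7, had higher means there at day 14. The mean of Hba-x went from 4.67 to 6.94 in GPSC-A, from 5.83 to 7.7 in GPSC-B and from 12.02 to 7.4 in ES. That of Cdh5 went from 5.03 to 6.31 in GPSC-A, from 5.12 to 6.4 in GPSC-B and from 8.47 to 9.23 in ES. These later changes were not tested. Of the 652 falls, 144 (22.1%) had their lowest mean at day 7 and 225 (34.5%) at day 28. Pou5f1 stood at day 28 at means of 6.18 (ES), 6.72 (GPSC-A) and 6.43 (GPSC-B).

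**Figure D4:**
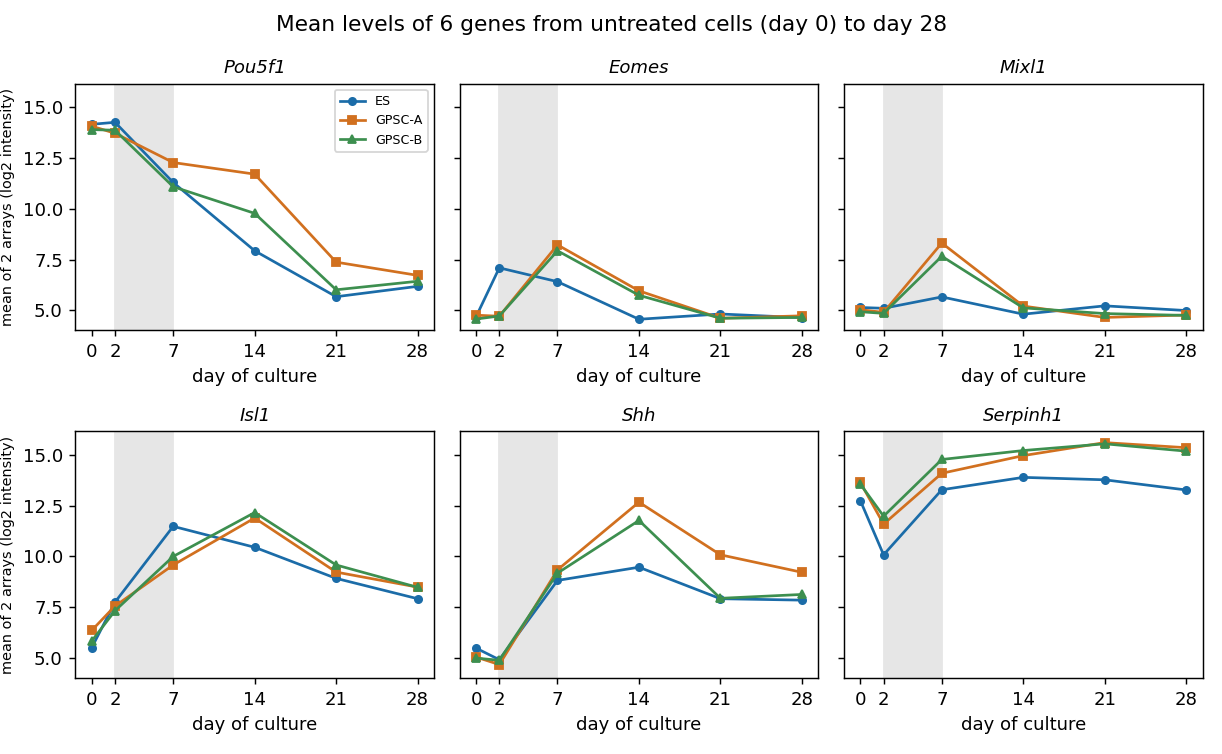
Mean level (log2 normalised intensity, 2 arrays) of 6 genes by day of culture from untreated cells (day 0) to day 28, 1 line per cell line, with the step from day 2 to day 7 shaded. Mixl1 and Eomes peak at day 7 in both GPSC lots and not clearly in ES, Isl1 and Shh peak at day 7 or 14, Pou5f1 is lower at every day after day 2, and Serpinh1 dips at day 2 and stays high later.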

How the data were processed

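Total RNA of 42 samples had been hybridised to Illumina mouse BeadChips, 1 array each, after biotin labelling, per the labels' protocols. The authors deposited, for each probe and array, a linear signal intensity that per the file headers was left without normalisation, and beside it a detection p-value against the negative controls. The submitters' processing notes name GenomeStudio, with no version. The authors' series matrix, an intensity normalised by an unstated method, served as an alternative. Slide and scan are not stated in the sources used here.

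Intensities were background corrected with the detection p-values, quantile normalised over all 42 arrays and turned into log2 after adding an offset of 16 (neqc, limma 3.58.1, R 4.3.3). Probes detected (p under 0.01) on at least 2 of 42 arrays were kept, 19251 of 45281, of which 2846 had no single gene symbol. The probe with the highest mean stood for a gene, giving 10879 genes. Of 818 other probes of called genes, 388 had the same call, 3 the opposite call and 427 none. Day 7 and day 2 were compared on 12 arrays with line as a block (lmFit and eBayes, 8 residual degrees of freedom, Benjamini-Hochberg adjustment over all genes). Line differences were tested by the interaction F test of limma in 6 groups (6 residual degrees of freedom). Both were tested on simulated data. A gene undetected on all arrays of a day has only a bound there: "at least N-fold" sets the mean of the detected day against that of the other, where each array enters at its lowest detected signal or at the probe's signal if that is higher. In medians with bounds such a gene counts at its bound, and as 0 where no bound over 1-fold exists. The number of arrays limits the precision.

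Arrays of the same replicate number deviated together (r of 0.108 to 0.591 over the 15 pairs of groups), so the number was treated as pairing arrays and tried as a block. The members, the 38 gene lists (1229 entries, 1072 genes, 757 tested) and the tests were chosen with earlier results of these data known. Named genes were the 10 largest changes and 10 largest bounds each way, up to 6 called members per list, the genes with the smallest interaction p, up to 3 per list, and a set of anchors, of which part is printed. Hbb-y, Hba-a1, Hbb-bt, Lefty2 and Cldn5 are named in addition, after their values were seen. Figures used Python 3.11.15 and matplotlib 3.10.9.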

Additional observations from a re-analysis of the deposited data

Results flagged for a closer look

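The change between day 2 and day 7 differed between the 3 lines for 144 genes, by the interaction test of limma with adjustment over all 10879 genes, and for 932 at an unadjusted p under 0.05. Each group held 2 arrays, so no single array could be tested as standing apart from its group.

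Vessel and blood genes make up part of them. The adjusted p was 0.0027 for Cdh5, Tie1 and Plvap, 0.003 for Icam2 and 0.0045 for Cldn5. It was 0.0045 for Nfe2, 0.0057 for Fli1, 0.017 for Itga2b and 0.04 for Tal1. It was 0.0043 for Hba-x, 0.006 for Hbb-bh1 and Hbb-bs, 0.0073 for Hbb-bt and 0.0079 for Hbb-y and Hba-a1. In all of these both GPSC changes lay below the ES change, as they did for Hoxc9 and Igf2r (0.0027 each), Cdkn1c (0.0048), Igf2 (0.027) and Fmo1 (0.00059).

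Both GPSC changes lay above the ES change for the streak genes Nodal (0.01), Gsc (0.031), Eomes (0.033) and Fst (0.036). The same held for the pluripotency genes Esrrb (0.014), Dnmt3l (0.015) and Dppa5a (0.017), and for Csrp3 (0.0051) and Samd3 (0.0063). Of the 29 genes named here and in the report with a line difference, 14 kept it with median scaling, and Esrrb, Dppa5a, Nodal, Fst, Tal1, Fli1, Nfe2, Itga2b, Cdh5, Tie1, Plvap, Cldn5, Hbb-y, Igf2 and Igf2r did not.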

How the results depend on the processing

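Of 96 printed genes that were called, 80 were called under every setting, 5 (Eomes, Hba-x, Icam2, Nodal and Fli1) were lost without at least 1 single array, and 0 values turned their sign. Leaving out 1 array at a time gave 868 to 950 rises, 617 to 682 falls and 63 to 135 line differences. Median scaling gave 394 falls and 22 line differences, and 14 of the 29 printed genes with a line difference kept it. Without background correction there were 410 rises and 239 falls, and on the authors' series matrix 471 and 288. Without the fold minimum there were 1851 rises and 1735 falls. Line differences numbered 249 in a model of all 42 arrays. With the replicate block over all lines they numbered 295, and rises 905 and falls 660; no printed call was lost there, and the block within lines ended the calls of Hba-x, Icam2 and Nodal. The medians of the endothelial and globin lists changed sign without ES (-0.14 against 0.31, and -0.15 against 1.90). The causes of these shifts were not tested. Without background correction 11 printed calls were lost. A gene at background on a day has only a bound there.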
